A study of Drosophila melanogaster with 4 samples.

Results

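Mitochondrial ribosomal proteins were followed in 4 expression arrays of Drosophila wing imaginal discs, from which the adult wing develops. Members were all genes with a probe set annotated to a single symbol that starts with mRpL or mRpS and a number, and each gene was represented by its probe set with the highest mean intensity. This gave 69 genes of the 11982 named on the array, 44 of the large subunit (mRpL) and 25 of the small subunit (mRpS). All 69 were at or above a detection floor of 26.9 intensity units on all 4 arrays, so none was left out for a low value. The floor is the 90th percentile of 125 probe sets for odorant and gustatory receptors.

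The mitochondrial ribosome translates the few messages encoded by mitochondrial DNA, most of which are core subunits of the respiratory chain. Its RNAs come from mitochondrial DNA, whereas all of its proteins are encoded in the nucleus, made in the cytosol and imported. The large subunit forms peptide bonds and the small subunit reads the message, and in flies loss of single members limits growth.

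All flies were yw and carried the driver en-Gal4, and the larvae were in the 3rd instar at 25 degrees. Control flies were en-Gal4/+. PI3K flies carried en-Gal4 over a UAS-PI3K overexpression transgene, Hdac3 RNAi flies carried en-Gal4/+ and 1 copy of UAS-Hdac3 RNAi, and the last genotype carried both transgenes. PI3K is a lipid kinase that drives growth downstream of the insulin receptor, and Hdac3 is a histone deacetylase. The series title asks about the loss of Hdac3 in tissue overgrown through PI3K. Because engrailed is a gene of the posterior compartment, transgene-expressing and other cells were hybridised together on each array. Pooling of discs is not given in the sources used here. These labels do not say which form of PI3K was expressed, and neither transgene was checked in the arrays.

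Each genotype has 1 array, so no difference could be set against a spread between replicates and no test was run. That number of arrays limits precision throughout. As a measure of probe noise, different probe sets of 1 gene differed in their log2 ratios with an SD of 0.15 to 0.24, over 431 genes with several probe sets. In these bulk samples fewer cells of a type and less RNA per cell cannot be told apart.

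Several features of the arrays moved with the genotypes. Summed markers of the fat body, the larval storage tissue that lies near the discs, were 3224 in control, 13540 in PI3K, 6673 under Hdac3 RNAi and 854 with both transgenes (6 of 9 listed genes were on the array, none under the floor). Under Hdac3 RNAi the fat body gene CG8997 was lower than in control (84 and 133), and the other fat body genes were higher. Summed salivary gland markers were 625, 4123, 636 and 449.95 in the same order (6 of 6 genes, with 2, 1, 2 and 2 under the floor), and summed gut markers were 1460.03, 3873, 1244 and 259 (6 of 6 genes, with 1, 1, 1 and 2 under the floor). The largest gut values were those of Jon65Aiii (515 in control, 1382 in PI3K) and Jon65Aiv (566 and 1792). Of 5 measured gut genes 4 were higher in PI3K than in control, and alphaTry was lower (35 and 29). Wing disc markers summed to between 4923 in PI3K and 7607 in Hdac3 RNAi, with all 6 measured genes above the floor on every array. Sums for muscle (1136 to 1390.2), hemocytes (3375 to 4595) and trachea (5358 to 6979) differed less. LanA was the largest part of the hemocyte sum, with 2491 in control. Single hemocyte genes differed more than the sum. He read 154, 99, 250 and 98, NimC1 150, 102, 130 and 73, and Hml 236, 211, 334 and 202 in the same order. Col4a1 and vkg differed less than these. The ratio of 3' to 5' signal for actin, a sign of RNA integrity, was 3.36 in control, 2.02 in PI3K, 3.25 under Hdac3 RNAi and 2.85 with both, and the PI3K array was also lowest for eIF-4a and for 1 of 2 GAPDH control sets. The log2 ratio of PI3K to control decreased with the length of the gene in the genome over all genes (Spearman's rho -0.46 across 7270 genes, a description of these 2 arrays).

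Every one of the 69 members had a higher intensity in PI3K discs than in control discs. The geometric mean over the members was 882 in control, 1038 in PI3K, 865 under Hdac3 RNAi and 928 with both transgenes. The PI3K array therefore stood highest, the array with both transgenes came next, and control and Hdac3 RNAi lay lowest and close together. The median log2 ratio of PI3K to control was 0.24, with a range of 0.04 to 0.61 and an SD of 0.10 among members, against a median of 0.02 over all 7436 genes measured on both arrays. Of all genes, 54.4% were higher in PI3K than in control. At least 1.2-fold higher in PI3K were 29 of the 69 members and 10.2% of all genes, and no member was 2-fold higher, a size reached by 0.847% of all genes. The count of 29 was 18 when the deposited values were left unscaled. In this comparison the SD between probe sets of 1 gene was 0.24.

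**Figure D1:**
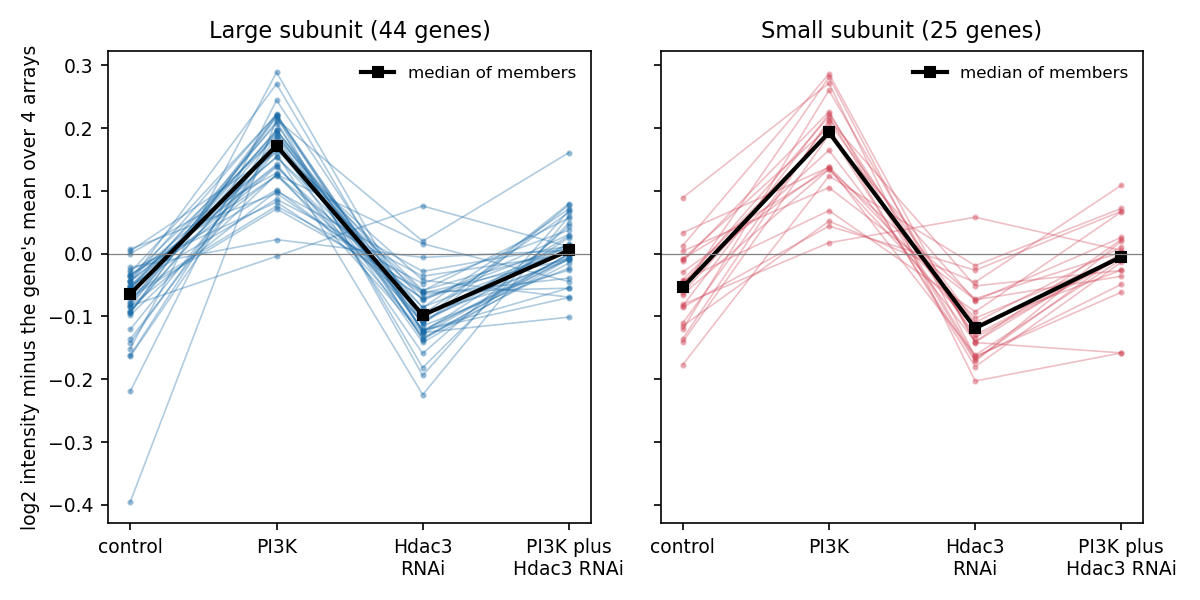
Log2 intensity of each of the 69 mitochondrial ribosomal proteins on each array relative to the gene's own mean over the 4 arrays, shown per subunit, with the subunit median as the thick line. PI3K is the highest array in 65 of the 69 members and Hdac3 RNAi the lowest in 45, or in 25 with arrays scaled to 1 median.

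Member by member, the place of PI3K was much the same and the order of the other arrays varied. PI3K was the highest of the 4 arrays in 65 of 69 members, 43 of the large subunit and 22 of the small, while it was highest in 40.9% of the 7301 genes measured on all arrays. Hdac3 RNAi was lowest in 45 members, against 35.6% of genes, and control was lowest in 22 and highest in none. The full order PI3K, both transgenes, control, Hdac3 RNAi held in 33 members and in 9.70% of genes. In 17 further members only control and Hdac3 RNAi were exchanged, an order held by 6.20% of genes. In 12 members control lay above both transgenes, with PI3K highest and Hdac3 RNAi lowest, an order held by 14.5% of genes. The place of Hdac3 RNAi below control depended on the scaling: with arrays scaled to 1 median, an alternative added for the array order after the data were seen, Hdac3 RNAi was lowest in 25 members, control in 43, and the full order held in 22, while PI3K was highest in 62.

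The subunits differed little. Large subunit members had geometric mean intensities of 898 in control, 1061 in PI3K, 889 under Hdac3 RNAi and 954 with both, and small subunit members had 854, 999, 822 and 883. Both subunits were highest in PI3K, and lowest in Hdac3 RNAi under this scaling. The median log2 ratio of PI3K to control was 0.24 in the large subunit and 0.23 in the small subunit. At least 1.2-fold higher were 20 of 44 large and 9 of 25 small members, against 10.2% of all genes, and the members' total of 29 was 6 once the median ratio of genes of like span in the genome was subtracted. In all 5 comparisons of arrays the medians of the subunits differed by 0.041 or less on the log2 scale, while the SD among members was 0.07 to 0.11. Over the alternatives, large minus small was 0.025 to 0.057 for both transgenes against PI3K and 0.027 to 0.047 for Hdac3 RNAi against control. In the other comparisons of arrays it lay between -0.016 and 0.020.

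The highest ratio of PI3K to control belonged to mRpL18, the counterpart of the bacterial protein that binds 5S ribosomal RNA in the central protuberance of the large subunit. Its intensity was 459.97 in control, 702 in PI3K, 613 under Hdac3 RNAi and 676 with both transgenes. Control stood apart as the low array, and the other 3 lay close together, a pattern unlike the members' median. Its log2 ratio to control was 0.61 in PI3K, 0.41 under Hdac3 RNAi and 0.56 with both, the highest of the 69 members in each of the 3 comparisons. All 3 share the same control reading. In comparisons without the control array its log2 ratio was -0.05 for both transgenes against PI3K and 0.14 against Hdac3 RNAi.

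Next came mRpL21 and mRpL35, both large subunit proteins with bacterial counterparts. The mRpL21 probe set read 529 in control, 729.6 in PI3K, 573 under Hdac3 RNAi and 651 with both, a log2 ratio of PI3K to control of 0.46. For mRpL35 the values were 457, 619.6, 468 and 499 in the same order, a log2 ratio of 0.44. The mRpL35 values without PI3K and with both transgenes were near each other, with PI3K alone above them, whereas mRpL21 kept part of its difference when both transgenes were present.

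In the small subunit the highest ratios were those of mRpS35, mRpS18B and mRpS25. In mRpS35, a protein that has no bacterial counterpart and sits in the head of the mammalian small subunit, intensities were 606 in control, 789 in PI3K, 597 under Hdac3 RNAi and 659 with both, a log2 ratio of PI3K to control of 0.38. The values for mRpS18B, 1 of 3 fly genes named for bacterial S18, were 966, 1230.0, 1024 and 1041, a log2 ratio of 0.35. The mitochondria-specific mRpS25 read 902, 1139.9, 837 and 899, a log2 ratio of 0.34. PI3K was the single high array for each of these, and in mRpS25 the other 3 arrays lay within 837 to 902.

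At the other end, mRpL20, mRpL33 and mRpL1 had the lowest large subunit ratios. The probe set of mRpL20, whose bacterial counterpart acts early in assembly of the large subunit, read 1436 in control, 1480.3 in PI3K, 1451 under Hdac3 RNAi and 1463 with both, a log2 ratio of 0.04 that leaves the 4 arrays nearly level. For mRpL33 the values were 1628, 1719.6, 1818 and 1738, so that Hdac3 RNAi was the highest array. The log2 ratio of PI3K to control was 0.08 for mRpL33 and 0.09 for mRpL1, which forms the mobile stalk beside the exit site of transfer RNA. In the small subunit the lowest were mRpS5, mRpS18A and mRpS29, all at 0.10. The mRpS5 probe set read 463 in control, 495 in PI3K, 509 under Hdac3 RNAi and 491 with both, which again put Hdac3 RNAi highest, and its gene span of 6299 bases is the second longest among members. For mRpS29, a GTP-binding protein of the head known in mammals as DAP3, the values were 619.7, 665, 587 and 603.

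**Figure D2:**
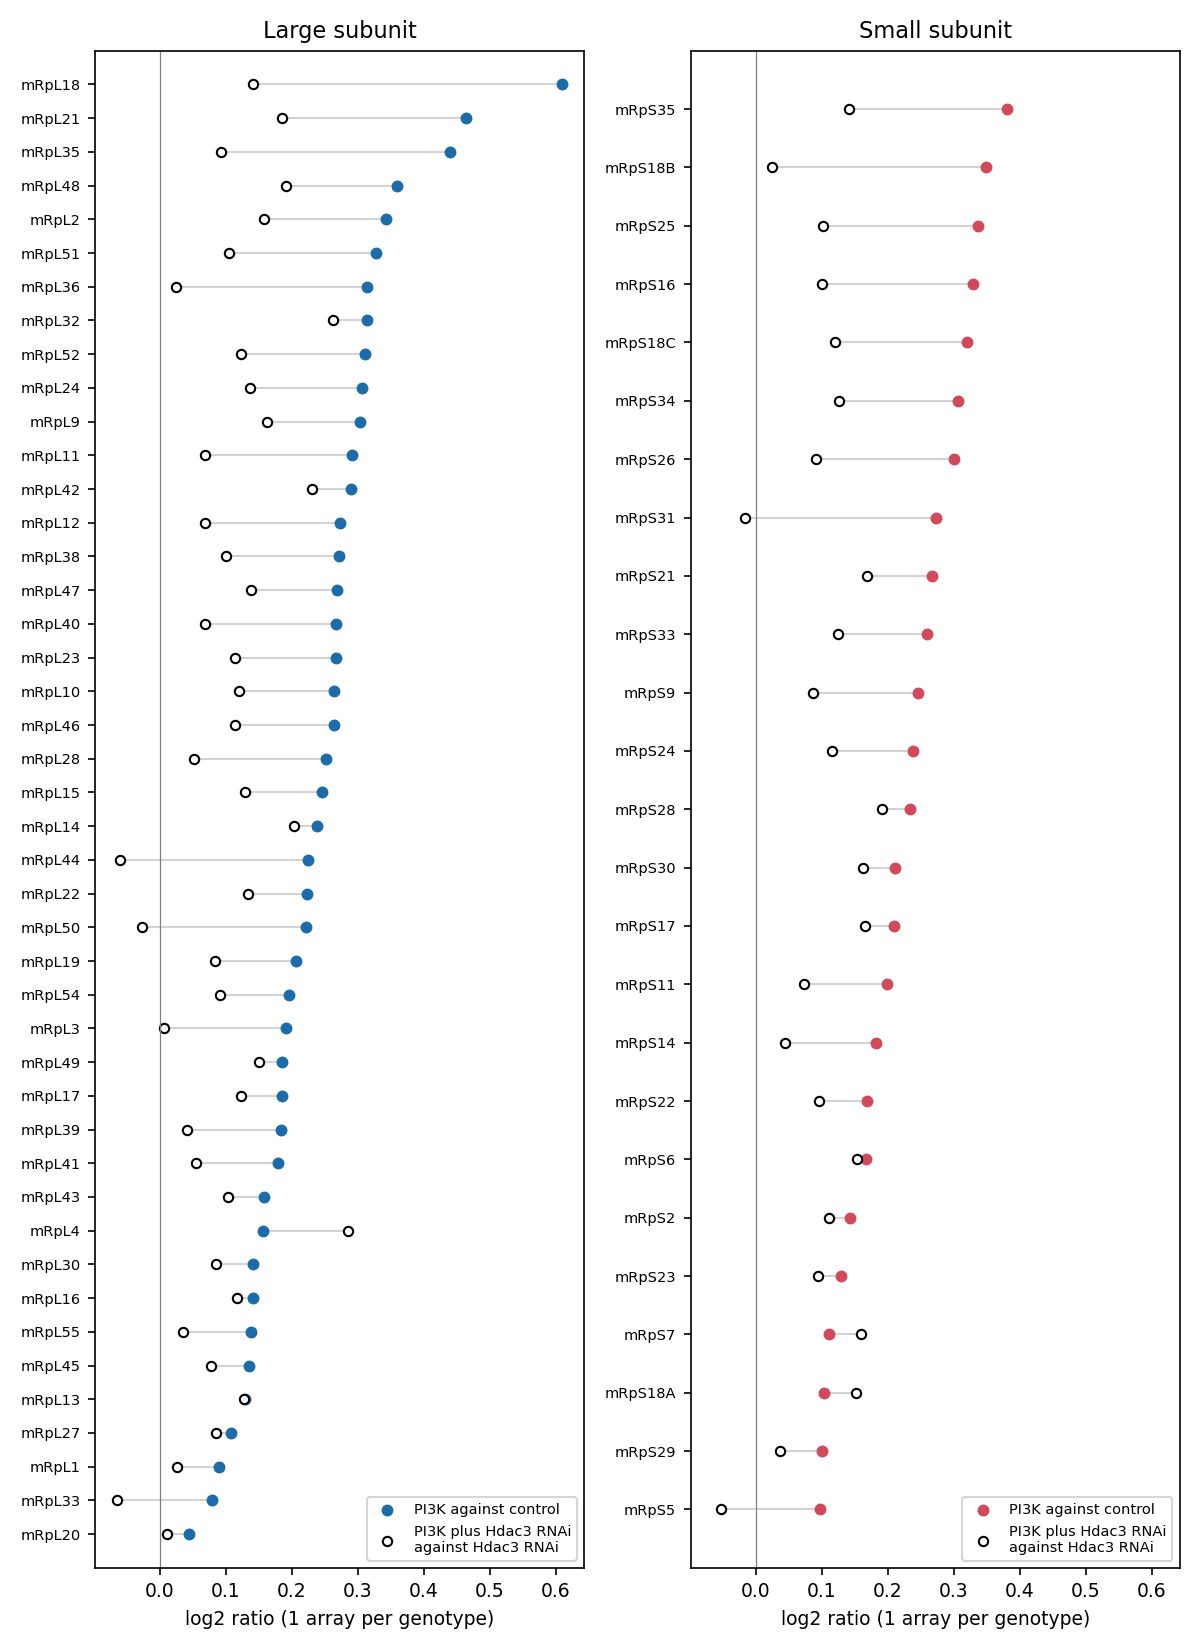
Log2 ratio of PI3K to control and of both transgenes to Hdac3 RNAi for each of the 69 members, ordered within each subunit by the first, with a vertical line at 0. All 69 points of the first comparison lie above 0, from 0.04 in mRpL20 to 0.61 in mRpL18, and 64 of the second.

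The members were grouped by where their counterparts sit in mammalian and bacterial ribosomes. The 3 stalk proteins mRpL10, mRpL11 and mRpL12 form or anchor the arm that recruits translation factors, and mRpL12 has been linked in flies to growth driven by Cyclin D and Cdk4. For mRpL12 intensities were 1585 in control, 1915 in PI3K, 1564 under Hdac3 RNAi and 1640.3 with both. For mRpL10 they were 704, 845, 667 and 725, and for mRpL11 they were 449, 549.7, 469 and 492. PI3K was the highest array for each, and the log2 ratios to control were 0.27, 0.26 and 0.29 in the same order.

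Around the peptide exit tunnel, 6 members had a median log2 ratio of PI3K to control of 0.24, and 3 of them were at least 1.2-fold higher, a size reached by 10.2% of all genes and by 13.8% of the other genes in the shortest quartile of gene span. One of these was mRpL47, the counterpart of bacterial L29, for which a pair of probe sets gave 0.27 and 0.24. The central protuberance held 8 members with a median of 0.27, of which 6 were at least 1.2-fold higher. The core proteins near the peptidyl transferase centre were less alike, with mRpL2 at 0.34, mRpL3 at 0.19 and mRpL4 at 0.16. In the small subunit the median was 0.24 over 8 head proteins and 0.28 over 12 proteins of the body and platform, of which 2 and 7 were at least 1.2-fold higher, against the same 10.2% and 13.8%. Proteins found in mitochondria alone (25 members) and those with a bacterial counterpart (42 members) had medians of 0.26 and 0.24, with mRpS18A and mRpS18B in neither class. Both mRpS30 and mRpS18A are named for the small subunit, although their mammalian counterparts sit in the large subunit, and their log2 ratios were 0.21 and 0.10. Apart from the stalk, the range within each place was wider than the gap between the medians of the places.

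Chromosomes are of interest here because the title names acetylation of histone H4 at lysine 16, the mark that accompanies dosage compensation of the male X chromosome in flies. On the X chromosome lay 11 members, with a median log2 ratio of PI3K to control of 0.19 against 0.01 for all X-linked genes measured. The 58 autosomal members had a median of 0.25 against 0.02 for all autosomal genes. All 11 X-linked members were above 0, from 0.08 in mRpL33 to 0.34 in mRpS25, as were all autosomal members and 54.4% of all genes. This contrast holds no Hdac3 RNAi array, so it does not address Hdac3 on the X chromosome. For Hdac3 RNAi against control, X-linked members ran from -0.29 in mRpS14 to 0.16 in mRpL33. Autosomal members ran from -0.23 in mRpL4 to 0.41 in mRpL18, and the difference between the chromosomes was not tested.

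The genes are short. The median span in the genome was 909 bases for the members and 2714.5 for all genes, and 63 of the 69 lay in the shortest quartile, at or under 1508 bases. In that quartile the members' median log2 ratio of PI3K to control was 0.24 and that of the 1755 other genes was 0.11, with 76.4% of those others above 0. At least 1.2-fold higher were 27 of the 63 members and 13.8% of the others. After subtracting the median of each span quartile, the members' median was 0.13 in place of 0.24, and 6 members rather than 29 were at least 1.2-fold higher. Among the members alone, span and ratio had a Spearman's rho of -0.14 (n = 69). The 2 members with spans in the longest quartile, mRpS9 at 13391 bases and mRpS5 at 6299, had ratios of 0.25 and 0.10, while the median of the other genes in that quartile was -0.17. What part span, RNA integrity or the marker sums of other tissues have in the PI3K values was not tested.

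**Figure D3:**
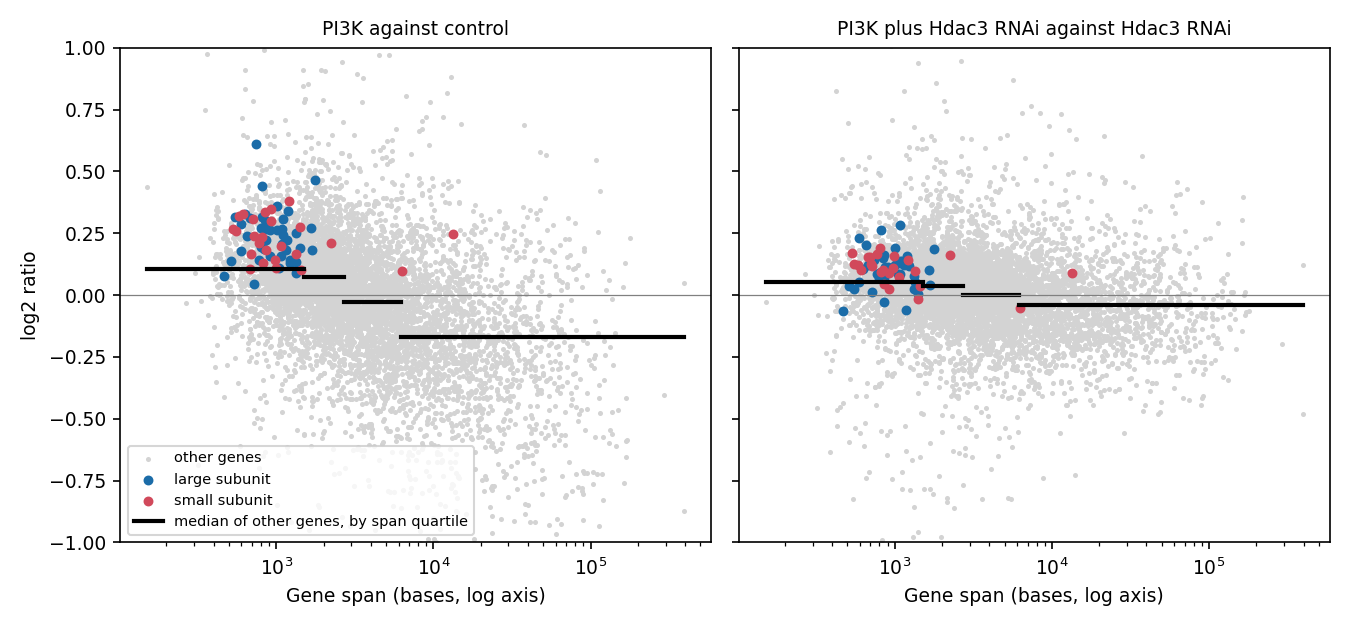
Log2 ratio against gene span in bases (log axis) for all genes in grey and for the mitochondrial ribosomal proteins in colour, for PI3K against control and for both transgenes against Hdac3 RNAi, with the median of the other genes in each span quartile as a black line; 80 and 37 genes lie outside the axis of log2 ratios. The members cluster at short spans, and 6 and 14 of the 69 lie below the median of all genes in their quartile.

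Hdac3 RNAi alone was close to control. The median log2 ratio of Hdac3 RNAi to control was -0.04 for the members and -0.03 for all genes. Of the members 46 were lower and 23 higher, while 57.4% of all genes were lower and 42.6% higher. This split turned when the arrays were scaled to 1 median of the measured genes, with 43 members higher, 26 lower and a median of 0.02, so the members' direction here depends on the scaling. The large subunit had a median of -0.03 and the small subunit -0.07.

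Only mRpL18 was at least 1.2-fold higher in Hdac3 RNAi than in control, and only mRpS14 at least 1.2-fold lower, against 6.49% and 8.48% of all genes. The small subunit head protein mRpS14 read 1159.6 in control, 1316 in PI3K, 947 under Hdac3 RNAi and 977 with both. Both arrays with Hdac3 RNAi were the low ones for mRpS14, and its log2 ratio of Hdac3 RNAi to control was -0.29. With arrays scaled to 1 median no member was at least 1.2-fold lower. All 8 members of the head were below 0 in this comparison, against 57.4% of all genes. Some of them lay near 0, such as mRpS35 at -0.02 and mRpS7 at -0.05. The direction of values this small depends on the scaling, as it did for the members as a whole. The other low values included mRpL4 at -0.23 and mRpS18A at -0.20. Above 0 after mRpL18 came mRpL33 and mRpS26 at 0.16, and mRpS5 at 0.14.

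The comparison of both transgenes with PI3K alone addresses Hdac3 RNAi in discs that overexpress PI3K. Of the 69 members 66 were lower with both transgenes than with PI3K, against 56.3% of all genes, and the median log2 ratio was -0.16 against -0.03. The median was -0.15 for the large subunit and -0.17 for the small subunit. At least 1.2-fold lower were 8 members, 4 of each subunit, or a share close to the 11% of all genes at that size. After subtraction of the median of each span quartile this count was 5, the median was -0.09 and 10 members were higher. Without that subtraction the difference was thus in 1 direction in nearly all members and under 1.2-fold in most. In the shortest span quartile the 63 members had a median of -0.16 and the other 1755 genes -0.06, with 64.8% of those others below 0. The fat body marker sum was 13540 in PI3K and 854 with both, and the actin ratio of 3' to 5' signal 2.02 and 2.85, and their part in these ratios was not tested.

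The 2 lowest ratios belonged to head proteins of the small subunit. For mRpS31, which is found in mitochondria alone, intensities were 1087 in control, 1314 in PI3K, 976 under Hdac3 RNAi and 965 with both, and the log2 ratio of both transgenes to PI3K was -0.44. In mRpS14 the ratio was -0.43. For mRpS31 and mRpS14 the array with both transgenes lay below control as well, with log2 ratios of -0.17 and -0.25. The head as a group had a median of -0.24, and its member mRpS7 was nearly level at -0.002. At least 1.2-fold lower were 3 of its 8 members, against 11% of all genes and 12.3% of the other genes in the shortest span quartile. These 3 include the 2 lowest members named above, with mRpS24 at -0.27 as the remaining one.

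In the large subunit mRpL36, a small protein with a bacterial counterpart, was lowest. It read 1219 in control, 1515 in PI3K, 1151 under Hdac3 RNAi and 1171 with both, so that PI3K alone was high, and its log2 ratio of both transgenes to PI3K was -0.37. The other members at least 1.2-fold lower were mRpS25 at -0.34, mRpL35 at -0.31, mRpL28 at -0.29 and mRpL40 at -0.28.

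The 3 members higher with both transgenes than with PI3K, against 43.7% of all genes, were mRpS6, mRpS23 and mRpL33. The platform protein mRpS6 read 398 in control, 447 in PI3K, 418 under Hdac3 RNAi and 465 with both, and its log2 ratio was 0.06. It was highest with both transgenes, as was mRpS23, which read 468, 512, 487 and 520.1. Their ratios were smaller than the SD between probe sets of 1 gene.

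Against control, discs with both transgenes still had 55 members higher and 14 lower, where 45.2% of all genes were higher and 54.8% lower. In the shortest span quartile 49 of 63 members and 62.0% of the other genes were higher. The median log2 ratio of both transgenes to control was 0.06, in each subunit as well, against -0.02 for all genes and 0.04 for the other genes of the shortest quartile, and it was 0.02 to 0.11 over the alternatives. At least 1.2-fold higher were mRpL18 at 0.56 and mRpL21 at 0.30, or 2 of 69 members, against 5.8% of all genes. With arrays scaled to 1 median 6 members reached that size, and the share of all genes was not taken under that scaling. No member was at least 1.2-fold lower, a size reached by 6.98% of genes, and mRpS14 was nearest to it.

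PI3K could be compared a second time in the presence of Hdac3 RNAi, on the other pair of arrays. Of the members 64 were higher with both transgenes than with Hdac3 RNAi alone, against 56.5% of all genes, with a median log2 ratio of 0.11 against 0.02. Relative to genes of like span the median was 0.06, with 14 members below 0. Subunit medians were 0.10 and 0.11. Only mRpL4 was at least 1.2-fold higher, and 4.72% of all genes were. The count was 2 without scaling and 0 after subtraction of the median of each span quartile. This core protein read 1902 in control, 2121 in PI3K, 1623 under Hdac3 RNAi and 1977 with both, so that Hdac3 RNAi alone was the low array, and its ratio was 0.28. The next were mRpL32 at 0.26 and, in the small subunit, mRpS28 at 0.19. The 5 members below 0, against 43.5% of all genes, were mRpL33 and mRpL44 at -0.06, mRpS5 at -0.05, mRpL50 at -0.03 and mRpS31 at -0.02.

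In this pair of arrays the fat body marker sum was 6673 in Hdac3 RNAi and 854 with both transgenes. The salivary gland and gut sums were 449.95 and 259 with both, and 636 and 1244 in Hdac3 RNAi. The 3' to 5' ratio of actin was 2.85 with both and 3.25 in Hdac3 RNAi, and the part of these in the members' ratios was not tested. Over all genes the Spearman's rho of this ratio with span was -0.26. In the shortest span quartile the 63 members had a median of 0.11 and the other genes 0.05, with 70.1% of those others above 0.

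These PI3K contrasts share no array. Members above 0 in both numbered 64 of 69, or 41 of 44 large and 23 of 25 small, and 2843 of 7301 genes were above 0 in both. Across members the ratios had a Pearson's r of 0.30 and a Spearman's rho of 0.30 (n = 69 genes, which share the arrays and mostly short spans and are not independent replicates). The r was 0.38 in the large subunit and 0.10 in the small subunit, and over all genes it was 0.08 with a rho of 0.40. The Hdac3 RNAi contrasts on separate arrays were both below 0 in 46 members and both above 0 in 3, with an r of 0.49 and a rho of 0.41. Over all genes 3010 of 7301 were below 0 in both and 1984 above 0 in both, with an r of 0.28 and a rho of 0.46, so the members' correlation was not higher than that of all genes by rank.

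**Figure D4:**
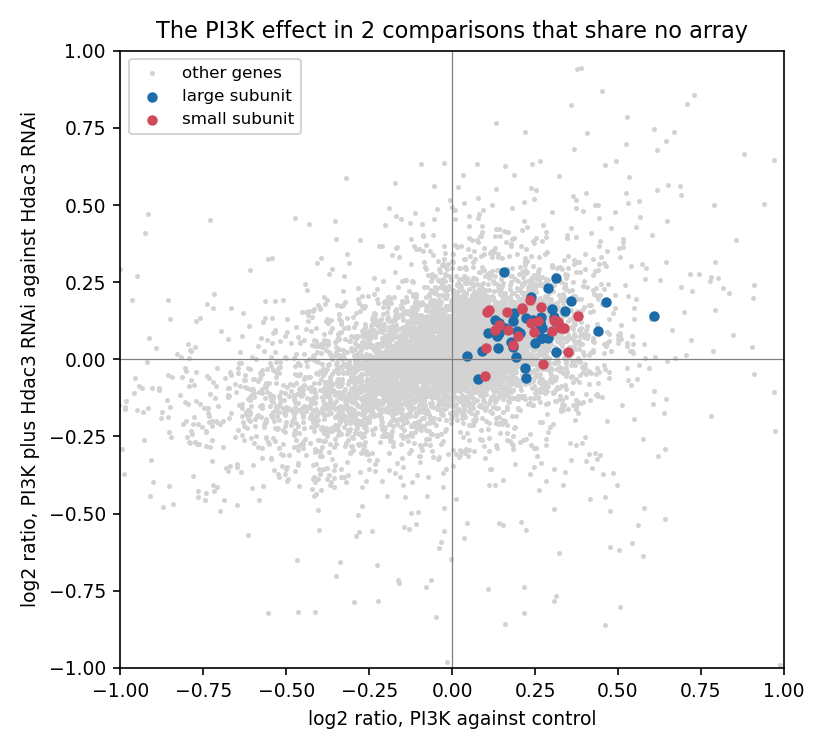
Log2 ratio of PI3K to control against log2 ratio of both transgenes to Hdac3 RNAi, for all genes in grey and for the members by subunit; 95 genes lie outside the axes, and the contrasts share no array. Of the 69 members 64 lie in the upper right quadrant.

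The PI3K difference was smaller with Hdac3 RNAi than without it in most members. The departure from additivity, the log2 ratio of both transgenes to PI3K minus that of Hdac3 RNAi to control, was below 0 in 66 of 69 members, against 47.3% of all genes. Its median was -0.14 for the members and 0.01 for all genes, with -0.14 in the large subunit and -0.13 in the small. In the shortest span quartile, which holds 63 of the members, the members' median was -0.13, and that of the other genes was -0.05 with 63.7% of them below 0. After subtraction of the median of genes of like span the members' median was -0.08 and 15 members were above 0, and with like level as well it was -0.07 with 18 above 0. This value uses all 4 arrays and shares them with every contrast above. At or beyond 1.2-fold on the low side were 7 members, against 8.16% of all genes. The lowest were mRpL18 at -0.47, mRpL35 at -0.35 and mRpS18B at -0.32. The count was 3 members without scaling and 13 with scaling to 1 median, and the share of all genes was not taken under these. Above 0, like 52.7% of all genes, were mRpL4 at 0.13 and mRpS7 and mRpS18A at 0.05.

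Other genes of mitochondrial gene expression were compared as lists. As background, 54.4% of all genes were higher in PI3K than in control, and 76.4% of the other genes of the shortest span quartile were, with a median log2 ratio of 0.11. Of 11 mitochondrial translation factors 9 were higher in PI3K than in control, with a median of 0.23 and a median span of 1839 bases. Their median was the nearest to that of the ribosomal proteins among these lists. The elongation factor mEFTu1, which brings transfer RNA to the ribosome, read 1016 in control, 1288 in PI3K, 969 under Hdac3 RNAi and 1083 with both, a ratio of 0.34. Lowest was mEFG1, the translocation factor, at -0.02. The median of this list was -0.13 for both transgenes against PI3K and 0.14 against Hdac3 RNAi.

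Mitochondrial aminoacyl-tRNA synthetases, which charge the transfer RNAs, had a lower median of 0.08 in PI3K against control, with 10 of 15 above 0, a share between those backgrounds, and a range from AspRS-m at -0.29 to TyrRS-m at 0.24. Genes that maintain or transcribe mitochondrial DNA had a median of 0.13, with 9 of 10 above 0, from the RNA polymerase PolrMT at -0.20 to the transcription factor mtTFB2 at 0.30. The 8 measured import genes had a median of 0.11, with the receptor Tom70 at 0.44 and the pore Tom40 at -0.06.

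Nuclear-encoded subunits of oxidative phosphorylation, which work beside the proteins made by the mitochondrial ribosome, had a median of 0.13 in PI3K against control, and 52 of 57 were above 0. The range ran from UQCR-11L at -0.48 to the Rieske iron-sulfur protein RFeSP at 0.49. UQCR-11L lay around the floor of 26.9, with 38.3 in control, 27.5 in PI3K, 29.7 under Hdac3 RNAi and 23.4 with both. The next lowest were ATPsynbetaL at -0.08, which read 35.8 in control, and blw at -0.06, which read 9935. Cytosolic ribosomal proteins had a median of 0.04, with 31 of 37 above 0 and a range of -0.08 in RpL27 to 0.20 in RpS5b. This list also holds genes named as like a ribosomal protein, such as RpL24-like, RpL7-like and RpLP0-like. It holds genes of low intensity as well, with RpS5b at 136, RpL37-2 at 54 and RpL22-like at 37 in control. Mean intensities of the cytosolic list had a median of 16692 and reached 21001, the highest of all genes measured on the 4 arrays. Whether signal is compressed at that level was not tested. With both transgenes against PI3K the medians were -0.11 for oxidative phosphorylation and 0.02 for the cytosolic ribosome. Both lists hold mostly short genes, 37 of 57 and 29 of 37 of them in the shortest span quartile. Against the quartile's median of 0.11 for PI3K against control, the oxidative phosphorylation and import medians lay close to it and the cytosolic median lay below it.

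**Figure D5:**
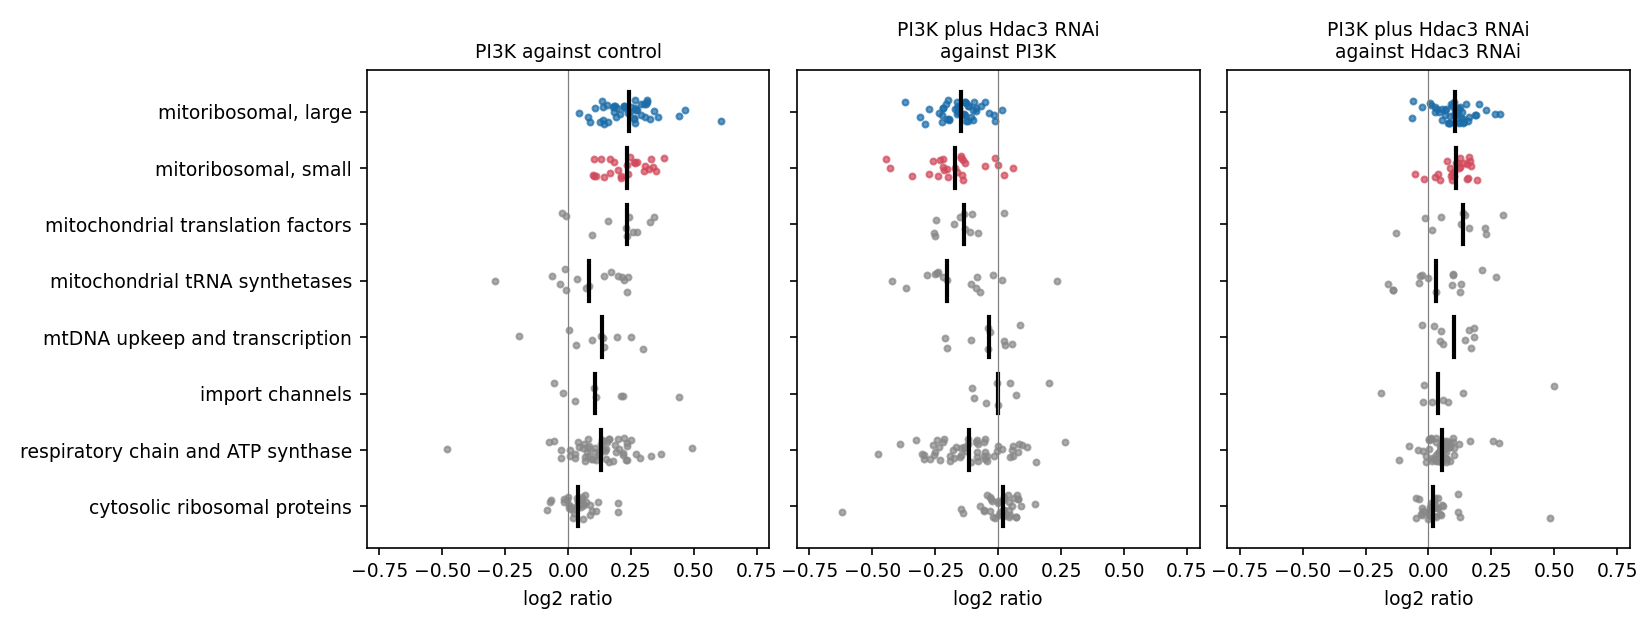
Log2 ratio of each gene in the mitochondrial ribosomal subunits and in the comparison lists, for 3 of the comparisons, with the list median as a bar and a line at 0. Both mitoribosomal subunits and the translation factors have the highest medians in PI3K against control, 0.23 to 0.24, and the median of the cytosolic ribosomal proteins is 0.04.

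Among mitoribosomal genes that carry other names, tko encodes the small subunit protein S12 and bonsai the protein S15. Intensities of tko were 1803 in control, 2123 in PI3K, 1726 under Hdac3 RNAi and 1794 with both, and those of bonsai were 1299, 1699, 1382 and 1466. PI3K was the highest array for both, with log2 ratios to control of 0.24 and 0.39, within the range of the 69 members. Regulators linked to mitochondrial biogenesis, none of them in the shortest span quartile, were mixed in direction, with log2 ratios of PI3K to control of -0.48 for ewg, -0.20 for CycD, -0.08 for ERR, 0.08 for Cdk4 and 0.13 for Ets97D. The first of these is the fly relative of NRF-1 and the last that of GABP alpha, transcription factors of nuclear mitochondrial genes in mammals.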

How the data were processed

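Per the labels, total RNA of wing discs was labelled with biotin and hybridised to Affymetrix arrays, 1 array for each of 4 genotypes. The values are linear intensities deposited by the authors for 18952 probe sets; MAS5 is named in the submitters' processing notes, and its settings are not given. Detection calls were not used. The supplied annotation, dated 2016, gave a single symbol to 13647 probe sets (11982 genes), and 183 probe sets are controls. Spans and chromosomes came from the RefSeq gene table of Release 6, in which 11893 genes were found.

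Each array was scaled to the mean of the 4 trimmed means (2% off each end; deposited values 281 to 287). Log2 ratios were taken only of values at or above the floor of 26.9, and a value under it gave no ratio. A gene was counted in a comparison when neither array was under the floor, and for the departure when none of the 4 was. Chosen sizes were 1.2-fold and 2-fold. Genes of 4 symbols matched in RefSeq (mRpL34, mRpL37, mRpL53 and mRpS10) had no single-symbol probe set and are not among the members.

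Named members were those with several probe sets, the 3 highest and 3 lowest per subunit in PI3K against control, the 2 highest and 2 lowest in each other comparison and in the departure, the extremes of level, the stalk proteins, mRpS30 and mRpS18A, and members of the opposite sign. Of the comparison lists, the extremes in PI3K against control were named. Other members were named to fill a count, a position or a chromosome, after their values were seen. Members and lists were chosen with earlier results of these data known. Places in the ribosome were assigned by hand from mammalian and bacterial structures.

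Alternatives were no scaling, scaling to 1 median, quantile normalization, no floor or a floor of 100, averaged probe sets, probe sets with plain names, subtraction of the median of genes of like span, like level or both, addition of genes with other names, and moving mRpS30 and mRpS18A to the large subunit. The array order was also taken under each scaling, an alternative chosen after seeing the data. With 1 array per genotype no p-value was computed. Scripts were tested on simulated data. Python 3.11.15, numpy 2.4.6, pandas 2.3.3, scipy 1.17.1 and matplotlib 3.10.9 were used.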

Additional observations from a re-analysis of the deposited data

Results flagged for a closer look

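In 5 members the log2 effect of Hdac3 RNAi had opposite signs without and with PI3K, with a departure of at least 1.2-fold. In each of them at least 1 of the opposed effects was smaller than the SD between probe sets of 1 gene. That SD was 0.18 without and 0.24 with PI3K. The share of all genes that meet this rule was not counted. The effect was 0.41 and -0.05 in mRpL18 (departure -0.47), 0.11 and -0.16 in mRpL21 (departure -0.28), 0.04 and -0.31 in mRpL35 (departure -0.35), 0.08 and -0.24 in mRpS18B (departure -0.32), and 0.11 and -0.17 in mRpL44 (departure -0.28).

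In mRpL44, a member with a fold related to RNase III, and in mRpS31 the PI3K effect had opposite signs without and with Hdac3 RNAi. It was 0.22 and -0.06 in mRpL44 (departure -0.28) and 0.27 and -0.02 in mRpS31 (departure -0.29). Each array is a single sample, so these differences were not tested.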

How the results depend on the processing

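The members' median log2 ratio of PI3K to control was 0.13 to 0.27 over all alternatives, that of both transgenes to PI3K -0.16 to -0.09, that of both to Hdac3 RNAi 0.05 to 0.11, that of both to control 0.02 to 0.11, and the departure -0.18 to -0.07. Hdac3 RNAi against control ran from -0.06 to 0.02. No named member's value reversed at a size that was called. No paired analysis was possible because each genotype has 1 array. With the deposited values unscaled, 18 members were at least 1.2-fold higher in PI3K than in control, 6 were higher with both transgenes than with PI3K, 2 were at least 1.2-fold higher with both than with Hdac3 RNAi, and for the departure 9 were above 0 and 3 at least 1.2-fold low. With scaling to 1 median, 43 members were higher and 26 lower in Hdac3 RNAi than in control, with 0 at least 1.2-fold lower; 4 were lower and 6 at least 1.2-fold higher with both than in control, 7 were higher with both than with PI3K, and 13 departures were at least 1.2-fold low. Quantile normalization left 9 members lower with both than in control and 5 departures above 0. Subtracting the median of genes of like span gave a median of 0.13 for PI3K against control, 0.13 in the large subunit, with 6 members lower and 6 at least 1.2-fold higher; 1 was at least 1.2-fold lower with both than in control, 10 were higher and 5 at least 1.2-fold lower with both than with PI3K, 14 were lower and 0 at least 1.2-fold higher with both than with Hdac3 RNAi, and 15 departures were above 0. Like level gave 4 members at least 1.2-fold higher with both than in control and 7 higher with both than with PI3K. Like span and level together gave a median for PI3K against control of 0.13, with 0.12 in the large and 0.13 in the small subunit, 7 members lower and 5 at least 1.2-fold higher; 23 were lower and 1 at least 1.2-fold lower with both than in control, 10 were higher and 5 at least 1.2-fold lower with both than with PI3K, 14 were lower and 0 at least 1.2-fold higher with both than with Hdac3 RNAi, and for the departure 18 were above 0 and 4 at least 1.2-fold low. The cause of these shifts was not tested. Shares of all genes were not taken under the alternatives, so these counts have none beside them. All members lie above the floor, so the floor changed none of their values.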

Other observations

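A pair of probe sets shared by a mitochondrial ribosomal protein and a second gene was left out of the members because the signal cannot be assigned to either. The probe set for mRpL53 and CG33155 read 1475 in control, 1538 in PI3K, 1334 under Hdac3 RNAi and 1351 with both transgenes. The probe set for mRpS10 and CG34316 read 1254, 1286, 1279 and 1304 in the same order. Neither shows the size of difference between PI3K and control seen in the members' median.

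Among listed genes outside the naming scheme, CG6094, which RefSeq also calls dICT1, had a log2 ratio of PI3K to control of 0.28, and CRIF one of 0.02. CRIF was higher with both transgenes than with PI3K, at 0.12. For mRpS11, a platform protein with 2 probe sets, the ratios of PI3K to control were 0.20 and 0.15.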
